A study of Mus musculus with 20 samples.

Results

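Neurod6, Tbr1, Emx1, Emx2 and Sox11 are transcription factors of the excitatory lineage of the cerebral cortex, and 6 of the 10500 probes on the array carried one of these 5 gene symbols in the platform annotation. Neurod6, Tbr1, Emx1 and Emx2 had 1 probe each and Sox11 had 2, annotated with the sequence records AK018080 and NM_009234. The probes were followed over all 20 CodeLink arrays, a 1-colour platform for biotin-labelled RNA. The RNA was a pool of adult retina from the strain C57/B6 (MRP1) and a pool of cortex from Swiss-Webster pups at P1, the first postnatal day (MC). With 5 hybridisations per pool at a first site and another 5 at site 2, the arrays form 4 groups. The labels give no treatment or altered allele for either pool. Within a group the arrays repeat 1 pool, so every p-value measures the spread between arrays and not between animals. Tissue, strain and age differ together between the pools and cannot be told apart. In such bulk RNA, fewer cells of a type and less RNA per cell cannot be told apart either.

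Excitatory neurons of the cortex arise from progenitors of the dorsal telencephalon. Emx1 and Emx2 are homeobox factors, related to each other, that mark these progenitors and pattern the cortex, and Emx1 stays on in many excitatory neurons. Tbr1 is a T-box factor of neurons that have just left the cell cycle and is needed for the identity of deep-layer neurons. Neurod6 is a basic helix-loop-helix (bHLH) factor of differentiating excitatory neurons, and Sox11 is a SoxC factor of newborn neurons in general, not of the excitatory lineage alone. In the adult retina Neurod6 is known from a subset of amacrine cells and Tbr1 from some ganglion cells.

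The 250 bases before the annotated start of each gene were read from RefSeq on the mouse build GRCm38.p6, where all 5 genes were matched. Those of Neurod6 and Sox11 are shown because, among the 5 genes, Neurod6 and the AK018080 probe of Sox11 had the largest differences between the pools. Each was also the nearest in pattern to the other. That of Tbr1 is shown because it holds both kinds of motif searched. Capitals mark the E-box CANNTG, the core that bHLH factors bind, and TAATTA, a core bound by many homeobox factors. Both motifs were searched on both strands, on which each reads the same, and no 2 matches shown overlap. Each sequence runs 5′ to 3′ on the gene's own strand.
Neurod6, minus strand, chr6:55681264-55681513: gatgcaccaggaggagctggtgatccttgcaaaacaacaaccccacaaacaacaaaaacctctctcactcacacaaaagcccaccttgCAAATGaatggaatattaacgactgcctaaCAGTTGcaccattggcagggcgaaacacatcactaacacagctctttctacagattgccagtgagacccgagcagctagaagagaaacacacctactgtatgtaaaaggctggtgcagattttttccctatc
Sox11, minus strand, chr12:27342719-27342968: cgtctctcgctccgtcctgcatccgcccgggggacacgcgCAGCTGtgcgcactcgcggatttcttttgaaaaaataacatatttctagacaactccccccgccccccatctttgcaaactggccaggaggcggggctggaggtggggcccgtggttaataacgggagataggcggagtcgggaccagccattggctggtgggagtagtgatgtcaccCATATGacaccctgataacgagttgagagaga
Tbr1, plus strand, chr2:61804203-61804452: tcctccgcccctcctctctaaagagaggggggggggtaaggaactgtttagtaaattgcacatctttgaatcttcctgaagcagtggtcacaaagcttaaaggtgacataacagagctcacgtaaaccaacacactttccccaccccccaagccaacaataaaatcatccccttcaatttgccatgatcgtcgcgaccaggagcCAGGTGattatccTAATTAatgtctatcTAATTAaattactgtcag

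Neurod6 held 2 E-boxes in this window, Sox11 held 2, Tbr1 and Emx1 held 1 each and Emx2 held 0. Of 32851 windows of the same length before annotated starts, 66.2% held at least 1 E-box. TAATTA was found 2 times before Tbr1 and 0 times before the other 4 genes, and 4.84% of all windows held it. The letters G and C made up 75.6% of the Emx1 window and 67.2% of the Emx2 window, against 46% for Neurod6 and 45.2% for Tbr1. A match says only that the letters are there, and no binding was measured.

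Intensities are on the linear scale of the deposited table, in which 1 is close to the median probe of an array, and array medians ran from 0.927 to 0.963. Levels of different probes cannot be set against each other, because probes differ in how strongly they bind. The table holds no detection flag. For orientation, the 5th percentile of all intensities was 0.0445 and the 25th percentile 0.194. Each of the 6 probes had a positive value on all 20 arrays and passed the filter on low values. A difference between groups was called when it reached 2-fold and an adjusted p in limma below 0.05. Cortex replicate 5 of site 2 stood apart from its group: the median distance of its probes from the mean of the other 4 arrays was 0.392 log2, against at most 0.184 on the other 19 arrays.

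Photoreceptor markers set the 2 pools clearly apart, and cortical neuron markers did so only in part. All 8 photoreceptor markers tested were called higher in retina at both sites. Of 7 cortical neuron markers other than the 5 genes, 3 (Neurod2, Bcl11b and Nrgn) were called higher in cortex at both sites and 0 in retina. The remaining 4 were called at neither site. Their summed intensity, over all 7, was 67.6 to 75.3 on first-site cortex arrays and 49.3 to 57.7 on first-site retina arrays. Each sum in this paragraph weighs a probe by its brightness. Camk2a and Reln, neither of them called, weighed most in this one. Their first-site means were 33.7 and 17.7 in cortex and 29.2 and 15.4 in retina. Among all 10339 probes tested, 10.5% were called higher in cortex at both sites, and 963 probes were called higher in retina at both. Some markers of neighbouring tissues were also called higher in the cortex pool at both sites. These were 3 of 3 for hypothalamus, 2 of 6 for pituitary, 3 of 6 for thalamus (Tcf7l2, Lhx9 and Prkcd) and 4 of 4 for meninges. In the other direction, 2 of 6 thalamic markers (Rora and Calb2) and 4 of 6 striatal ones (Drd2, Ebf1, Isl1 and Rgs9) were called higher in retina at both sites, 0 striatal markers were called higher in cortex, and the summed intensity of the thalamic markers was 46.1 to 59.9 in first-site retina against 12.8 to 14.3 in first-site cortex. The summed intensity of the hypothalamic markers was 3.94 to 4.72 on first-site cortex arrays and 0.143 to 0.182 on first-site retina arrays, and that of the meningeal markers 4.10 to 4.69 and 0.430 to 0.486. Of 9 markers of cycling progenitors, 6 were higher in cortex at both sites. Of 2 choroid plexus markers, 1 was called higher in retina at both sites and 1 higher in cortex at site 2 only. No marker of these lists was at or below 0 on all arrays of a group. The part of these tissues and cells in the differences described here was not tested.

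In all, 5 of the 6 probes were called higher in cortex than in retina at both sites, and the exception was the Sox11 probe of NM_009234. Over all 10339 probes tested, 13.0% were called higher in cortex at the first site, 13.5% at site 2 and 10.5% at both. Between the sites, none of the 6 probes was called in either tissue. Of all 10339 probes, 745 were called between the sites in cortex and 645 in retina, so few of any 6 would be. Emx1 and Emx2 read lower on every site 2 cortex array than on any first-site cortex array, by under 2-fold on average. Such a separation was seen for 18.7% of all probes.

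**Figure D1:**
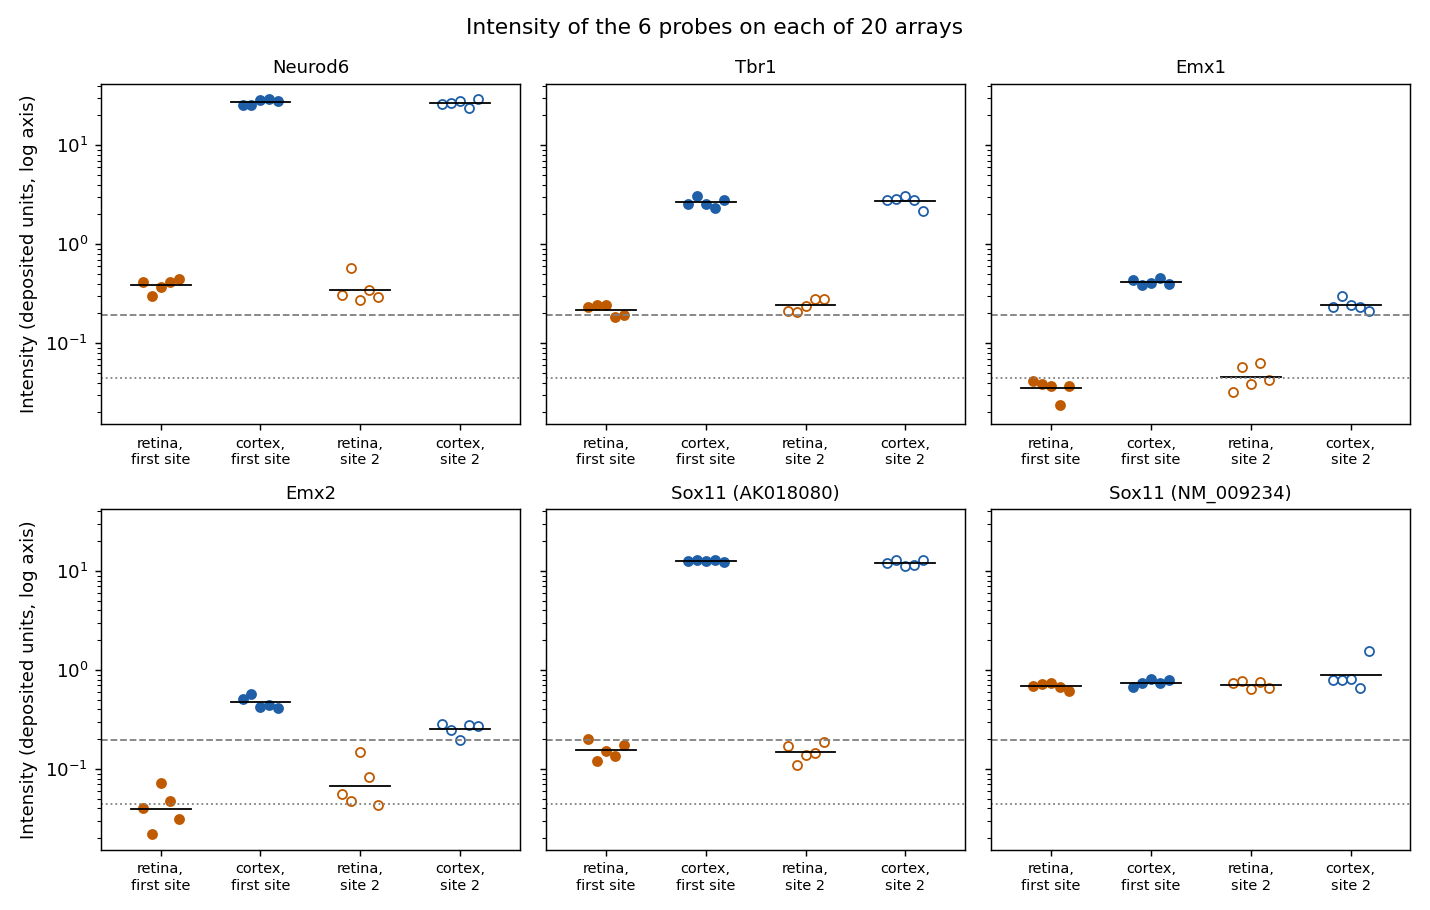
Intensity of the 6 probes (log axis, deposited units) on each of 20 arrays, by tissue and site. Points are arrays (orange retina, blue cortex; filled first site, open site 2), black lines are geometric means of 5 arrays, and the dotted and dashed grey lines are the 5th (0.0445) and 25th (0.194) percentiles of all intensities. All but 1 of the probes read higher on every cortex array than on any retina array of the same site (not so for the NM_009234 probe of Sox11), and Emx1 and Emx2 read lower in cortex at site 2.

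Neurod6, the bHLH factor of differentiating excitatory neurons, read 25.6, 25.7, 28.9, 29.1 and 27.7 on the first-site cortex arrays. On the first-site retina arrays it read 0.415, 0.303, 0.368, 0.412 and 0.442. Every cortex array lay far above every retina array, and no retina array lay below the 25th percentile of all intensities. At site 2 the cortex arrays read 25.9, 26.8, 28.2, 23.8 and 29.2, and the retina arrays 0.310, 0.570, 0.272, 0.348 and 0.296. The groups again did not overlap, and among the retina arrays replicate 2 was the highest. Cortex exceeded retina 71.1-fold for Neurod6 at the first site (95% interval 56.9 to 88.7) and 77.2-fold at site 2 (61.8 to 96.5). The log2 differences, retina minus cortex, were -6.15 and -6.27 (SE 0.15 at each site, limma adjusted p = 7.1e-17 and 4.7e-17, n = 5 arrays per group).

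Sox11, the factor of newborn neurons, gave different readings with its 2 probes. The probe of AK018080 read 12.6, 12.9, 12.5, 12.8 and 12.2 on first-site cortex arrays and 0.200, 0.120, 0.153, 0.135 and 0.177 on first-site retina arrays. At site 2 it read 11.9, 12.8, 11.3, 11.6 and 12.8 in cortex and 0.172, 0.110, 0.139, 0.147 and 0.189 in retina. Groups of the 2 tissues did not overlap, and the difference was 81.6-fold at the first site (95% interval 67.1 to 99.3) and 81.2-fold at site 2 (66.8 to 98.9). Of the 10 retina readings, 9 lay below the 25th percentile of all intensities, and none lay below the 5th.

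The Sox11 probe of NM_009234 read 0.666, 0.734, 0.814, 0.735 and 0.788 on first-site cortex arrays and 0.692, 0.724, 0.739, 0.673 and 0.621 on first-site retina arrays. At site 2 it read 0.799, 0.800, 0.812, 0.663 and 1.56 in cortex and 0.733, 0.767, 0.648, 0.755 and 0.664 in retina. Tissues overlapped at both sites, and 1 array, cortex replicate 5 of site 2, was well above the other 19. The log2 differences were -0.12 (95% interval -0.45 to 0.21) and -0.31 (-0.64 to 0.02), neither called (limma adjusted p = 0.56 and 0.095). Without cortex replicate 5 of site 2 the second difference was -0.11 (limma adjusted p = 0.27). The intervals of this probe exclude the difference of more than 6 log2 units that the other Sox11 probe gave. Which part of the transcript each probe covers is not given in the sources used here.

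Tbr1, the T-box factor of deep-layer neurons, read 2.53, 3.09, 2.55, 2.31 and 2.82 on first-site cortex arrays and 0.231, 0.241, 0.246, 0.183 and 0.191 on first-site retina arrays. At site 2 it read 2.79, 2.88, 3.06, 2.80 and 2.19 in cortex and 0.211, 0.206, 0.240, 0.283 and 0.282 in retina. The tissues did not overlap at either site, and the lowest site 2 cortex reading was on replicate 5. The cortex level of Tbr1 was 12.2-fold that of retina at the first site (95% interval 10.2 to 14.6) and 11.3-fold at site 2 (9.44 to 13.4). The adjusted p in limma was 4.2e-15 and 7.3e-15.

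Emx1, a homeobox factor of the dorsal telencephalon, read 0.437, 0.388, 0.407, 0.461 and 0.401 on first-site cortex arrays and 0.0414, 0.0388, 0.0367, 0.0240 and 0.0368 on first-site retina arrays. At site 2 it read 0.234, 0.300, 0.242, 0.232 and 0.212 in cortex and 0.0323, 0.0573, 0.0388, 0.0628 and 0.0421 in retina. The tissues did not overlap at either site. All 5 first-site retina readings and 3 of 5 at site 2 lay below the 5th percentile of all intensities. The site 2 cortex readings of Emx1 were dim as well, around the lower quartile of those arrays (0.228 to 0.260). The fold was 12.0 at the first site (95% interval 9.37 to 15.3) and 5.36 at site 2 (4.20 to 6.85), with log2 differences of -3.58 and -2.42 (SE 0.17 each, limma adjusted p = 6.3e-13 and 2.3e-10).

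Emx2, the second Emx factor, which has its main role in progenitors and in the patterning of cortical areas, read 0.514, 0.574, 0.427, 0.447 and 0.412 on first-site cortex arrays. On first-site retina arrays it read 0.0402, 0.0219, 0.0716, 0.0479 and 0.0311. At site 2 the cortex arrays read 0.285, 0.249, 0.195, 0.277 and 0.271 and the retina arrays 0.0564, 0.0477, 0.150, 0.0826 and 0.0433. The tissues did not overlap, but at site 2 the highest retina array, replicate 3, came near the lowest cortex array, also replicate 3. The site 2 cortex readings of Emx2 also lay around the lower quartile of those arrays (0.228 to 0.260). For Emx2 the cortex level was 12.0-fold that of retina at the first site (95% interval 7.68 to 18.7) and 3.73-fold at site 2 (2.39 to 5.81), with log2 differences of -3.58 and -1.90 (SE 0.31 each, limma adjusted p = 4.6e-09 and 2.2e-05).

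For the 5 probes called, arrays of the 2 tissues did not overlap at either site, where 27.1% of all probes at the first site and 24.3% at site 2 had every cortex array above every retina array. The exact 2-sided permutation test of 5 against 5 arrays gave p = 0.00794 for each of the 5 at each site, the smallest p this design allows. Sizes of the Emx differences depend on how dim readings are treated. With values raised to the 25th percentile of all intensities, the log2 difference of Emx1 was -1.11 at the first site and -0.32, not called, at site 2, and that of Emx2 was -1.28 and -0.38, the second not called. With 0.1 added to every intensity the differences were -1.94 and -1.23 for Emx1 and -2.01 and -1.04 for Emx2.

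**Figure D2:**
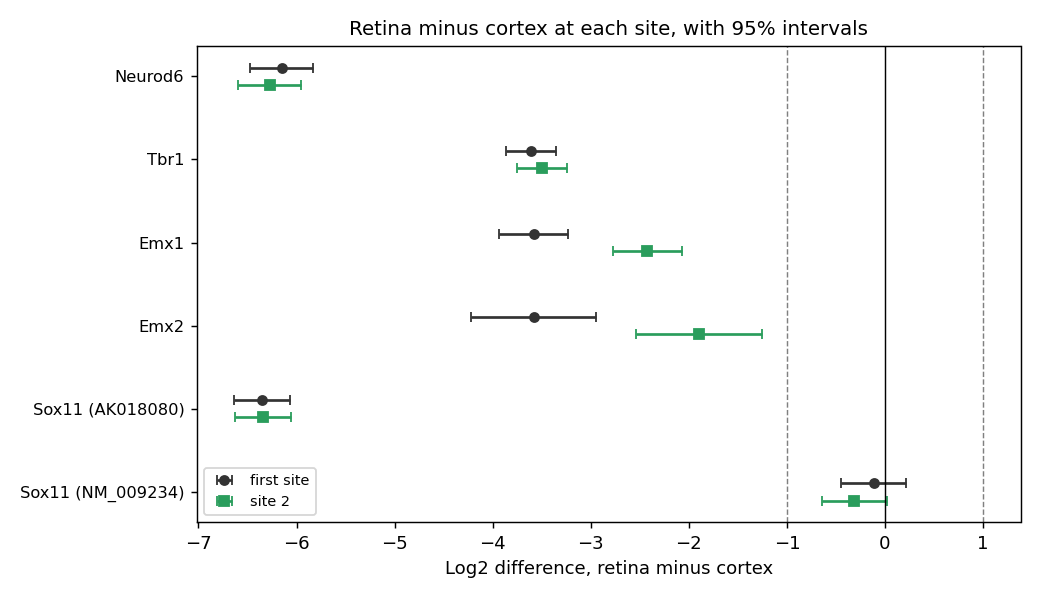
Log2 difference of each probe, retina minus cortex, at the first site (circles) and site 2 (squares), from limma with 95% intervals, 5 arrays per group. Grey dashed lines mark 2-fold. Neurod6 (-6.15 and -6.27), the AK018080 probe of Sox11 (-6.35 and -6.34) and Tbr1 (-3.61 and -3.49) lie at nearly the same place at both sites, Emx1 and Emx2 lie nearer 0 at site 2, and the NM_009234 probe of Sox11 lies near 0.

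The second site allowed each difference to be measured again on the same 2 pools. The tissue difference itself was compared between sites as an interaction contrast, site 2 minus the first site, for which 0.725% of all probes tested were called. These were 75 probes, and 121 without cortex replicate 5 of site 2, 160 with array weights, 35 with 0.1 added and 24 with the replicate number as a block. Emx1 and Emx2 were called, at 1.16 (95% interval 0.66 to 1.66, limma adjusted p = 0.011) and 1.68 (0.78 to 2.59, limma adjusted p = 0.035). The other 4 probes were not called, with values of -0.12 for Neurod6 (-0.57 to 0.33), 0.12 for Tbr1 (-0.24 to 0.48), 0.01 for the AK018080 probe of Sox11 (-0.39 to 0.41) and -0.20 for its NM_009234 probe (-0.66 to 0.27). Neither Emx call held throughout. The Emx1 value was 0.96 when readings were floored at the 5th percentile and 0.71 with 0.1 added, both under 2-fold. Their adjusted p in limma was 0.0016 and 8.7e-04, so only the minimum fold was missed. The Emx1 call held in all 20 runs without 1 array. With 0.1 added the Emx2 value was 0.97, also under 2-fold (limma adjusted p = 0.0057). Floored at the 25th percentile, Emx1 was 0.79 and Emx2 0.90, under 2-fold (limma adjusted p = 4.8e-05 and 3.8e-04). The Emx2 call was lost without any 1 of 10 arrays, namely first-site retina replicates 1 and 2, first-site cortex replicates 1 to 4, site 2 retina replicate 4 and site 2 cortex replicates 2 to 4 (adjusted p in limma up to 0.066, log2 1.47 to 1.72). With the replicate number as a block neither was called (limma adjusted p = 0.056 and 0.15), at unchanged values of 1.16 and 1.68. Replicate numbers did not pair the arrays and the block uses up degrees of freedom, so this loss says little about either call.

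In cortex, Emx1 was lower at site 2 by a log2 difference of -0.79 (95% interval -1.14 to -0.43, limma adjusted p = 8.9e-04) and Emx2 by -0.90 (-1.54 to -0.25, limma adjusted p = 0.022). Both were under 2-fold and so were not called, and 1.92% of all probes were called lower at site 2 in cortex. At the adjusted p alone, with no minimum fold, 46.8% of all probes passed in cortex and 46.7% in retina. For both, all 5 site 2 cortex arrays lay below all 5 first-site cortex arrays, as was the case for 18.7% of all probes. Without cortex replicate 5 of site 2 the differences were -0.74 and -0.92. The adjusted p of Emx2 in limma was 0.051 without first-site cortex replicate 2 and 0.056 without site 2 cortex replicate 3. After quantile normalization they were -1.10 and -1.19 and both were called. The dim end of the arrays stood higher at site 2 in both tissues. In cortex the lower quartile of an array was 0.228 to 0.260 there, against 0.179 to 0.186 at the first site. In retina it was 0.190 to 0.207 at site 2, against 0.154 to 0.166 at the first site.

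In retina the log2 difference between the sites was 0.37 for Emx1 (95% interval 0.02 to 0.72, limma adjusted p = 0.078) and 0.79 for Emx2 (0.15 to 1.43, limma adjusted p = 0.042), neither called, where 4.79% of all probes were called higher at site 2, and the arrays of the 2 sites overlapped for both. The Emx2 value rested on dim readings. It was 0.50 (limma adjusted p = 0.13) without site 2 retina replicate 3, and 1.00 and called without first-site retina replicate 3. With readings floored at the 5th percentile it was 0.46, at the 25th it was 0, with 0.1 added 0.28, and after quantile normalization 0.38. The Emx1 value rested on dim readings too, and was 0.24 without first-site retina replicate 4. With readings floored at the 5th percentile the Emx1 value was 0.17, at the 25th 0, with 0.1 added 0.11, and after quantile normalization -0.08. Neurod6 differed between the sites by -0.03 in cortex (-0.35 to 0.29) and -0.15 in retina (-0.47 to 0.17), and the retina value was -0.33 (limma adjusted p = 0.014), still under 2-fold, without site 2 retina replicate 2. Tbr1 differed by 0.04 (-0.21 to 0.30) and 0.16 (-0.10 to 0.41), and the AK018080 probe of Sox11 by -0.06 (-0.34 to 0.22) and -0.05 (-0.34 to 0.23). After quantile normalization the retina value of this Sox11 probe was -0.37 (limma adjusted p = 0.034), under 2-fold. The NM_009234 probe differed by 0.25 in cortex (-0.08 to 0.58), which was 0.039 without site 2 cortex replicate 5, and by 0.05 in retina (-0.28 to 0.38). None of these was called, and the intervals leave room for site differences of the size of their bounds.

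**Figure D3:**
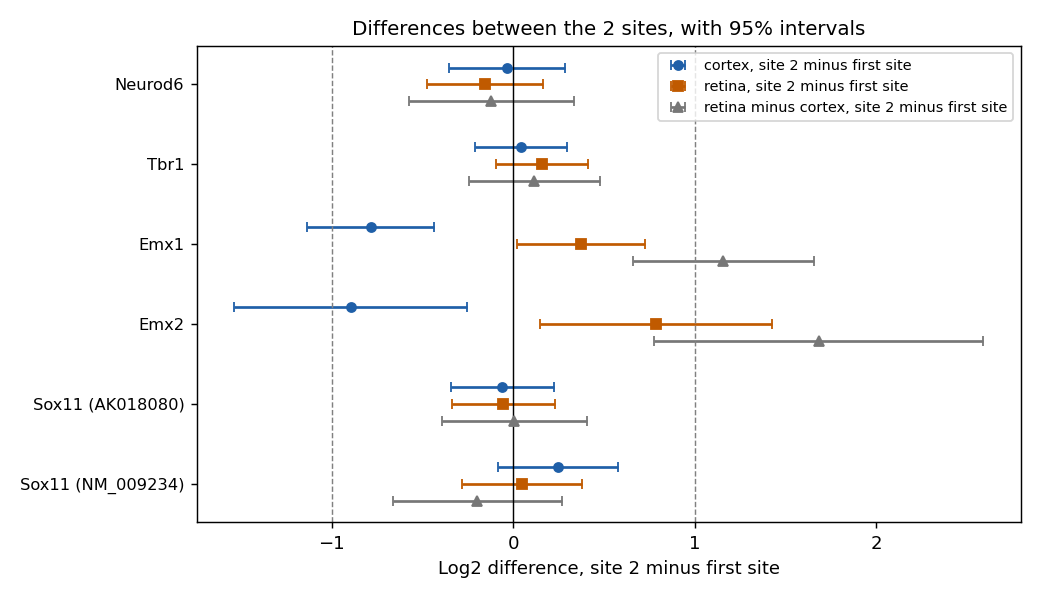
Log2 difference between the sites, site 2 minus first site, for each probe in cortex (circles), in retina (squares) and in the tissue difference retina minus cortex (triangles), from limma with 95% intervals. Grey dashed lines mark 2-fold. The intervals of Emx1 and Emx2 lie below 0 in cortex (-0.79 and -0.90) and above 0 in retina (0.37 and 0.79), and those of the other 4 probes cross 0.

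**Figure D4:**
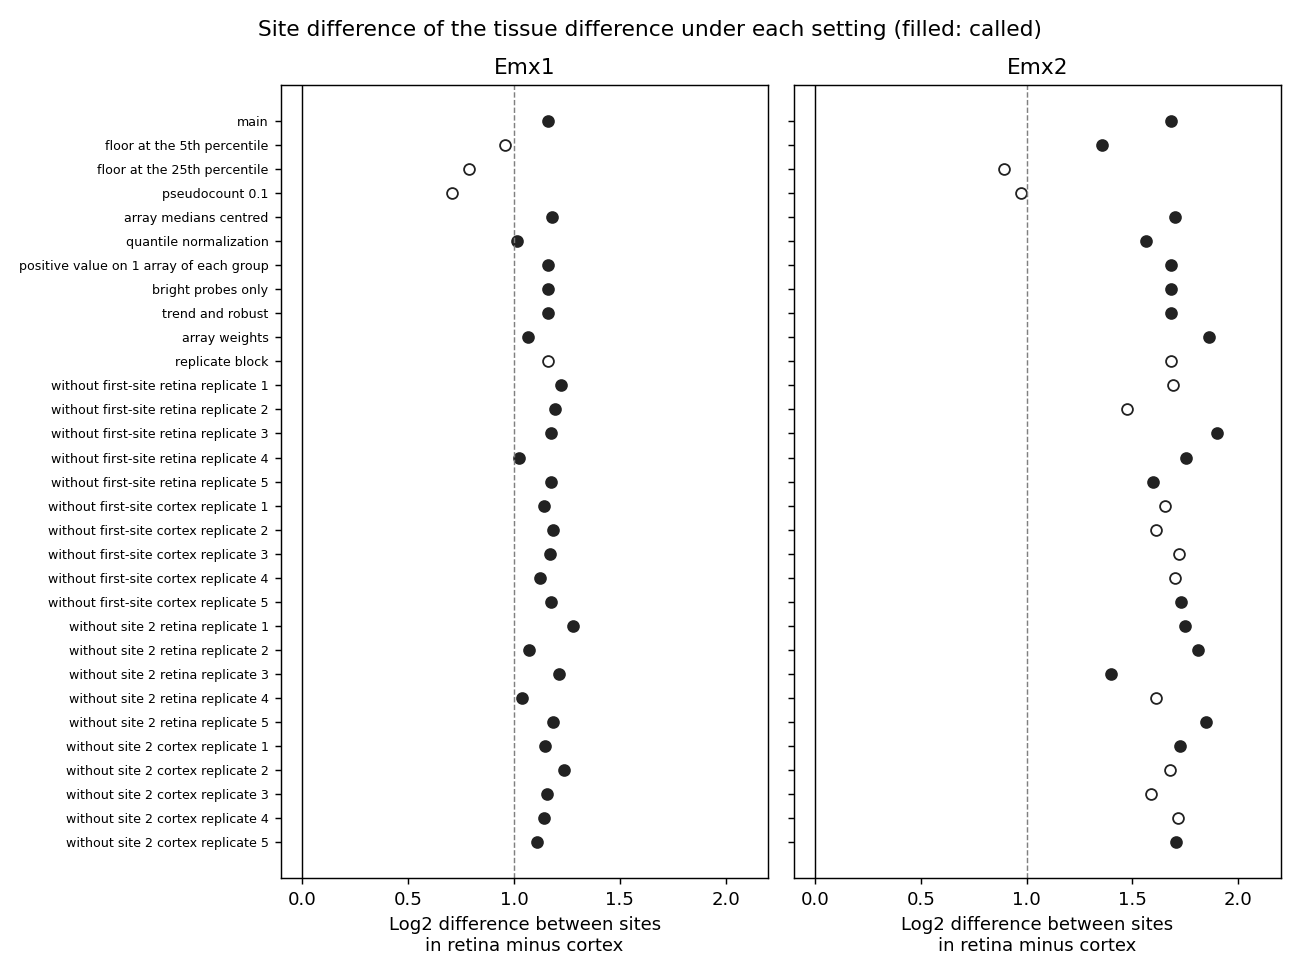
Log2 difference between the sites in retina minus cortex for Emx1 (left) and Emx2 (right) under each alternative setting, with the dashed line at 2-fold. Filled points were called and open points were not. Emx1 ranged from 0.71 to 1.28 and Emx2 from 0.90 to 1.90, all above 0.

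From highest to lowest, the 4 group levels of Neurod6 and of the AK018080 probe of Sox11 ran first-site cortex, site 2 cortex, first-site retina and site 2 retina, and those of Tbr1 ran cortex at site 2, cortex at the first site, retina at site 2 and retina at the first site. For these 3 probes the 2 groups of 1 tissue overlapped, so only the step between tissues exceeded the spread. Emx1 and Emx2 had 3 steps (cortex at the first site, cortex at site 2, retina at site 2, retina at the first site), of which the last, between the 2 retina groups, lay within the overlap of their arrays.

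The spread between arrays differed between probes and between tissues. The SD of log2 intensity of the AK018080 probe of Sox11 was 0.03 over the 5 first-site cortex arrays and 0.08 at site 2, at the 0.29th and 1.64th percentile of all tested probes of those groups, whereas it was 0.29 and 0.30 in retina. Neurod6 had an SD of 0.09 and 0.11 in cortex and of 0.21 and 0.42 in retina. Over all tested probes the median SD was 0.16 for first-site retina, 0.17 for first-site cortex, 0.16 for site 2 retina and 0.23 for site 2 cortex. Tbr1 lay close to the median in first-site cortex (0.16) and below it in site 2 cortex (0.18, at the 31.6th percentile). In retina Tbr1 lay a little above the medians (0.20 and 0.22). Emx2 had the widest spread of the 6 probes in retina, with an SD of 0.64 and 0.73, at the 94.6th and 94.9th percentile, and Emx1 had 0.31 and 0.40. The NM_009234 probe of Sox11 had an SD of 0.10, 0.11 and 0.11 in first-site retina, first-site cortex and site 2 retina, and of 0.48 in site 2 cortex, where replicate 5 was high.

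Likeness of pattern was measured as the root mean square distance between the 4 group means of log2 intensity, each probe centred on its own mean, over 4 groups. The gene most like Neurod6 was Sox11 by its AK018080 probe, at 0.08 log2, and the most like that probe was Neurod6. Avp, the vasopressin precursor of the hypothalamus, and Myc, a factor of proliferating cells, followed for both (0.35 and 0.49 from Neurod6, 0.41 and 0.55 from Sox11). For Tbr1 the closest were Traf4 (0.09), Carhsp1 (0.10) and Tk1 (0.11), the last a thymidine kinase of dividing cells. For Emx1 they were Cd55, a regulator of complement (0.12), the somatostatin receptor Sstr4 (0.14) and Rspo3, a secreted enhancer of Wnt signalling (0.14). For Emx2 they were Emx1 (0.20), Cdkn3 (0.21) and the collagen gene Col6a3 (0.25). The NM_009234 probe of Sox11 was closest to Gsc, Sptlc1 and H2-M9, at 0.01, 0.03 and 0.03. These distances describe 4 group means and say nothing of shared control.

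Other transcription factors of the excitatory lineage were more often higher in cortex than in retina, though several were higher in retina. Of 41 such genes listed, 26 were tested. Those called higher in cortex were 14 at the first site and 15 at site 2, where 13.0% and 13.5% of all probes were. Higher in retina were 4 and 3, where 11.9% and 11.1% of all probes were. The median log2 difference of the list was -1.01 and -1.31, beside -0.04 and -0.05 over all probes tested. Pou3f1, a POU factor of projection neurons, was 16.5-fold and 31.9-fold higher in cortex. Bcl11b (Ctip2), a factor of subcerebral projection neurons, was 12.2-fold and 8.70-fold higher, and its relative Bcl11a 10.3-fold and 12.0-fold. A second, dimmer Bcl11b probe was also called at both sites, at -4.18 and -5.12 log2. Pax6, a factor of cortical progenitors and also of amacrine cells and the developing eye, was 9.25-fold and 10.3-fold higher in retina. Neurod1, the relative of Neurod6 that photoreceptors also use, exceeded its cortex level in retina 8.67-fold and 8.72-fold, and Nhlh2 did 5.17-fold and 6.51-fold. Mef2c, a factor of maturing neurons, differed by 0.19 and -0.34 log2 and was not called.

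Among 16 neural bHLH factors tested, those called higher in cortex numbered 4 at the first site and 3 at the other. In retina 3 were higher at each. Of all probes, 13.0% and 13.5% were called higher in cortex and 11.9% and 11.1% in retina. The Neurod family was split: Neurod6 and Neurod2, its close relative in cortical excitatory neurons, were higher in cortex (5.62-fold and 6.85-fold for Neurod2), and Neurod1 and Neurod4 were higher in retina (85.1-fold and 97.2-fold for Neurod4). These directions held under every scaling tried. Olig1, a factor of the oligodendrocyte lineage, had a cortex level above retina by 34.4-fold and 18.6-fold, and Tcf4, a broad partner of bHLH factors, by 2.82-fold and 4.68-fold. Neurog2, which acts upstream of this family in cortical progenitors, differed by 0.22 and 0.08 log2 and was not called. The median of the list was -0.54 and -0.50.

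Of 8 T-box factors tested beside Tbr1, 1 was called in each direction at each site. That is close to the shares of all probes, 13.0% and 13.5% in cortex and 11.9% and 11.1% in retina. Tbx2, a factor of the developing eye, was 13.8-fold and 15.4-fold higher in retina. Tbx15 was 2.08-fold and 2.29-fold higher in cortex, from dim readings, and its call was lost at both sites with 0.1 added, with readings floored at the 25th percentile, after quantile normalization (-0.88 and -0.98 log2), and at the first site without first-site retina replicate 4 (-0.99). Tbx21 differed by 0.01 and 0.04 log2. The median of the list was -0.08 and -0.12.

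Of 12 Sox factors other than Sox11, 4 were called higher in cortex and 0 in retina at each site. The shares of all probes were 13.0% and 13.5% in cortex and 11.9% and 11.1% in retina. The median of the list was -0.72 and -0.60 log2. Sox4, the SoxC relative of Sox11, was 6.05-fold and 8.49-fold higher in cortex. Sox10, of the oligodendrocyte lineage, was 8.83-fold and 4.06-fold higher, and Sox18, an endothelial factor, 2.81-fold and 2.89-fold. Sox13 differed by 0.03 and -0.10 and was not called.

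Of 21 other homeobox factors of forebrain and eye, 7 and 6 were called higher in cortex and 5 in retina at each site. The median was 0.04 and -0.02 log2. For this list and the inhibitory lineage below, the shares of all probes were 13.0% and 13.5% in cortex and 11.9% and 11.1% in retina. Those named for the cortex side are known from inhibitory interneurons, namely Lhx6 (34.1-fold and 16.5-fold), Dlx1 (18.5-fold and 15.9-fold) and Dlx6 (10.6-fold and 5.91-fold). The retina readings of Lhx6 and Dlx6 were dim, with first-site means of 0.0501 and 0.0353, so their folds are uncertain. Those of retina were Otx2, a factor of photoreceptors and bipolar cells (21.2-fold and 22.5-fold), Vax2, of the ventral eye (28.8-fold and 16.1-fold), and Pax6. Gbx2 differed by 0.05 and -0.02. Across 17 genes of the inhibitory lineage, 6 and 8 were called higher in cortex and 3 in retina at each site (median -0.66 and -0.89). Sst, the somatostatin gene, was 13.5-fold and 15.1-fold higher in cortex, whereas Gad1, which makes GABA, was 2.56-fold and 2.97-fold higher in retina, Slc32a1, the vesicular GABA transporter, 2.39-fold and 2.95-fold, and Prox1 4.74-fold and 2.90-fold. Nkx2-1 differed by 0.09 and 0.32 and was not called.

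Products of excitatory neurons were called higher in cortex for 7 of 17 genes at the first site and for 8 at site 2. In retina 1 gene was higher at each, and the median was -0.29 and -0.31. Beside these counts, 13.0% and 13.5% of all probes were called higher in cortex, and 11.9% and 11.1% in retina. Nrgn, neurogranin of forebrain excitatory neurons, was 24.8-fold and 21.7-fold higher in cortex, the adhesion gene Cdh13 9.24-fold and 14.6-fold, and the semaphorin receptor gene Plxnd1 7.18-fold and 6.35-fold. Nrn1, neuritin, was instead higher in retina, by 3.40-fold and 3.49-fold, and Crym, a layer marker of projection neurons, differed by -0.01 and 0.08.

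Genes of immature neurons were called higher in cortex for 15 of the 16 tested at the first site and for all 16 at site 2. The same held for 13.0% and 13.5% of all probes, and the median of the list was -1.81 and -2.66. Marcksl1, an actin regulator, was 23.9-fold and 28.7-fold higher, Cd24a, a surface protein of young neurons, 21.1-fold and 27.9-fold, and Gap43, of growing axons, 9.23-fold and 13.4-fold. Tead2, a gene that SoxC factors are known to activate, was the smallest at 1.89-fold, not called, and 2.17-fold. Without cortex replicate 5 of site 2, the numbers called in these lists stayed within 1.5 times of those given, apart from T-box factors higher in cortex at site 2 (2).

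Of the 39 genes named from these lists, 8 had a fold that shrank by over 1.5 times at a site when dim readings were raised to the 25th percentile. The floored log2 differences at the first site and site 2 were -3.14 and -2.53 for Lhx6, -0.95 (not called) and -1.80 for Dlx6, -3.16 and -2.25 for Olig1, and -2.54 and -3.90 for Pou3f1. They were 2.39 and 2.75 for Tbx2, -1.63 and -3.03 for Sox4 and -4.10 and -4.01 for Marcksl1. Tbx15 was near 0 at both sites and its calls were lost.

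**Figure D5:**
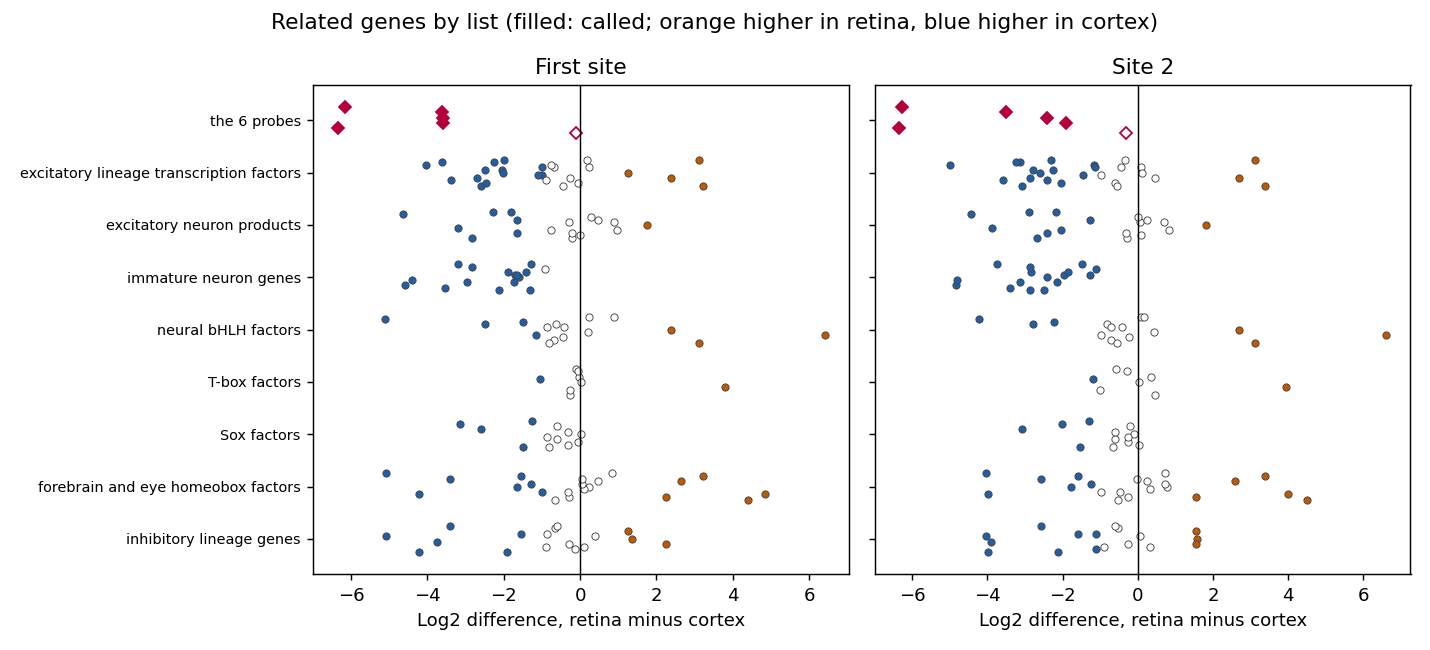
Log2 difference, retina minus cortex, of every tested gene of 8 lists of related genes, at the first site (left) and site 2 (right), with the 6 probes of Neurod6, Tbr1, Emx1, Emx2 and Sox11 as diamonds in the top row. Filled symbols were called, orange circles higher in retina and blue circles higher in cortex. Genes of immature neurons lie on the cortex side in every case, and the bHLH and homeobox lists spread to both sides.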

How the data were processed

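Per the labels' protocols, RNA of 2 pools was labelled with a CodeLink assay kit and hybridised to 20 arrays. The authors' deposited table holds 1 linear intensity per probe and array for 10500 probes. For scanner software, background correction and scaling the state is: not given in the sources used here. The table had 2080 blank values and 143 at or below 0. Precision is limited by the number of arrays. Of all array pairs, 0 were identical.

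Probes were named from the platform annotation: 1 symbol for 9378 probes, several for 8 and none for 1114. Positive intensities were converted to log2 and all others treated as missing. A probe with at least 3 positive values in each group was tested (10339 probes). Array medians of log2 differed by at most 0.0594, under a limit of 0.1, so the deposited scaling was kept. One mean per group was fitted to all 20 arrays with limma 3.58.1 in R 4.3.3 (lmFit, eBayes), with Benjamini-Hochberg adjustment over all tested probes. The fit was tested on simulated data. Python 3.11.15 and matplotlib 3.10.9 drew the plots.

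The 5 genes, the lists and the tests were chosen with earlier results of these data known. A listed gene stands by its brightest probe. The text names, per list, up to 3 genes called the same way at both sites with the largest mean difference in each direction, and the gene nearest 0. Alternatives were floors, a pseudocount of 0.1, 2 normalizations, 2 filters, other variance models, only the 2 groups compared, no minimum fold, a replicate block and each array left out. Replicate numbers did not pair the arrays: deviations of same-numbered retina and cortex arrays of a site correlated at -0.08 to 0.04 over 10 pairs.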

Additional observations from a re-analysis of the deposited data

Results flagged for a closer look

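Of 24 groups of 5 readings, 3 held 1 array whose gap to its neighbour was over 0.71 of the whole range of log2 intensity, and chance alone gives about 1 in 20. The NM_009234 probe of Sox11 read 1.56 on site 2 cortex replicate 5, against 0.663 to 0.812 on the other 4 arrays. Tbr1 read 2.19 on the same array, against 2.79 to 3.06. Emx1 read 0.0240 on first-site retina replicate 4, against 0.0367 to 0.0414.

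The retina minus cortex difference itself differed between the sites by 1.16 log2 for Emx1 (limma adjusted p = 0.011) and by 1.68 log2 for Emx2 (limma adjusted p = 0.035), with 4 array groups of 5.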

How the results depend on the processing

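The background step of the deposited values is unknown and limits most the Emx1 and Emx2 folds, since their retina readings lay near the 5th percentile of all intensities. Neurod6, Tbr1 and the AK018080 probe of Sox11 were called higher in cortex at both sites under every alternative run, and the NM_009234 probe under none.

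Of the 6 probes, 5 were called at site 2, but 3 when readings were floored at the 25th percentile. For the difference between sites, 2 probes were called, 1 when readings were floored at the 5th percentile, 0 when floored at the 25th, 0 with 0.1 added, 0 with a replicate block, and 1 to 2 without 1 array. The replicate block changed no other call of these probes; it gives no value for site 2 against the first site, because its blocks lie within a site. Only the 2 groups compared gives none for the difference between sites. Between the sites in cortex, 0 probes were called, but 2 after quantile normalization and 2 with no minimum fold; in retina 0, but 1 with no minimum fold, and 0 to 1 without 1 array. After quantile normalization 251 of 510 probes called between the sites in cortex were higher at site 2, against 547 of 745 as deposited, and in retina 298 of 474 against 495 of 645.

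Some values near 0, none of them called, changed sign. After quantile normalization they were 0.17 for Neurod6 and 0.11 for Sox11 (AK018080) between sites in cortex, -0.056 for Tbr1 and -0.082 for Emx1 between sites in retina, and -0.15 for Tbr1 and -0.48 for Sox11 (AK018080) in the difference between sites; with array weights Sox11 (AK018080) was 0.090 between sites in retina. At site 2 Sox13 was 0.036 and Gbx2 0.11 after quantile normalization, and with array weights Gbx2 was 0.023, Crym -0.023 and Nkx2-1 -0.012; Tbx21 was -0.031 at the first site with a floor at the 25th percentile. Without 1 array, the values between sites ran from -0.067 to 0.0067 for Neurod6 in cortex, from -0.0061 to 0.12 for Tbr1 in cortex and from -0.14 to 0.057 for Sox11 (AK018080) in retina; the differences between sites ran from -0.084 to 0.12 for Sox11 (AK018080) and from -0.30 to 0.0089 for Sox11 (NM_009234). Retina minus cortex at the first site ran from -0.048 to 0.032 for Crym, -0.12 to 0.12 for Tbx21, -0.010 to 0.070 for Sox13, -0.0056 to 0.13 for Gbx2 and -0.0060 to 0.22 for Nkx2-1, and at site 2 from -0.11 to 0.15 for Tbx21, -0.20 to 0.12 for Gbx2 and -0.24 to 0.48 for Nkx2-1. The cause of these changes was not tested.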
